A study of Mus musculus with 8 samples.

Results

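The genes described here are 10 members of the annexin, S100 and galectin families, namely *Anxa1*, *Anxa2*, *Anxa5*, *Anxa6*, *S100a4*, *S100a6*, *S100a10*, *S100a11*, *Lgals1* and *Lgals3*. They were picked by gene symbol, as family members associated with effector T cells, and all 10 were found among the 12417 entries of the expression table. The choice was made with results of the ST2WT against ST2fl/fl comparison on these same libraries in view. Differences of the 10 genes between the genotypes are therefore given as descriptions, with no test.

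The study asked how IL-33, an alarmin that signals through its receptor ST2 (encoded by *Il1rl1*), shapes donor CD4+ T cells early in graft-versus-host disease. RNA-Seq was performed on donor CD4+ T cells sorted on d5 from the spleens of 4 BALB/c mice that had been lethally irradiated and given B6 marrow and T cells (alloHCT). ST2WT cells came from B6 CD45.1+ donors (St2+/+). ST2fl/fl cells came from CD45.2+ donors on the B6 background that carried St2fl/fl, CD4-Cre and R26-LSL-YFP. In these mice Cre, driven by CD4 regulatory sequence, deletes part of *Il1rl1* in T cells and turns on a YFP reporter. Mice entered the procedures at 6 to 10 weeks of age, recipients were female, and every library came from cells exposed to the same allogeneic host. Each recipient was taken to have given 1 library of each genotype, so there were 4 libraries a genotype and 8 in all. The deletion, Cre, the reporter and the CD45 allele differ together between the groups and cannot be told apart in this comparison.

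Annexins are cytosolic proteins that bind acidic membrane phospholipids when calcium rises. Most S100 proteins are small calcium-binding dimers, and some members of the family dock onto annexins: S100A10 pairs with annexin A2 and S100A11 with annexin A1. Galectins bind β-galactosides on glycoproteins of the cell surface, and several genes of all 3 families are known to be expressed more in activated and memory than in naive T cells.

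The values are TPM, a transcript's share of a library scaled by transcript length, so that levels can be set side by side between genes as well as between libraries. Since TPM hold no total of reads, neither sequencing depth nor counting error is known for any library. Every one of the 12417 entries was above 0 in all 8 libraries. The 10238 entries that averaged 1 TPM or more, all 10 members among them, entered the limma comparison of genotypes on log2(TPM + 1). The targeted gene *Il1rl1* was at 14.6 to 21.3 TPM in ST2WT libraries and 14.9 to 17.7 TPM in ST2fl/fl libraries (log2 fold change 0.14, SE 0.12). The values are per gene, so transcript from exons outside the deleted part cannot be told from that of an intact gene. The level of *Il1rl1* therefore checks no label, and why it was similar in the groups was not tested. *Gt(ROSA)26Sor*, transcribed from the reporter's locus, was at 92.1 to 108 TPM against 30.6 to 40.7 TPM. The ST2WT library of recipient 2 stood apart: the SD of its log2 deviations from the other libraries of its genotype was 0.465, against 0.242 to 0.279 in the other 7, and mitochondrially encoded transcripts took 9.18% of its TPM against 12.7% to 13.8%. Results of some single genes are also given without it, while ratios and summed levels are given with it only.

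The T cell identity of the sorted cells was checked with marker genes. All 10 T cell markers searched were listed, with *Trbc2* at 4209 ± 260 TPM (SD, n = 4) in ST2WT and 4537 ± 83.8 TPM in ST2fl/fl cells. Their summed level was 12890 to 13644 TPM in ST2WT and 14870 to 15000 TPM in ST2fl/fl libraries. Of the 10 markers, 9 had a negative log2 fold change. For 4 of them every ST2WT library lay below every ST2fl/fl library, against 5.45% of all tested genes. *Cd4*, 1 of these 4, was 137 ± 19.3 against 181 ± 12.8 TPM (limma adjusted p = 0.151, and 0.0543 with the recipient as a block). Its log2 fold change was -0.40 (SE 0.11). *Cd3g*, a chain of the T cell receptor complex, was 2133 ± 61.0 against 2674 ± 38.4 TPM (limma adjusted p = 0.0106), with a log2 fold change of -0.33 (SE 0.05) that is under the 1.5-fold limit. Myeloid cells also express S100 proteins, annexins and galectin-3. Of 14 monocyte and macrophage markers, 4 were listed, with a summed level of 152 to 263 TPM in ST2WT and 129 to 207 TPM in ST2fl/fl libraries, most of it *Ly6c2*, which activated T cells express too. The defining genes *Lyz2*, *Csf1r*, *Adgre1* and *Itgam* were not among those listed. Since every entry listed was above 0 in all 8 libraries, a marker of any cell type that was not listed may still have been present in some libraries. Of 9 neutrophil markers, which include *S100a8* and *S100a9*, 1 was listed (*Ly6g*, 0.650 to 2.09 TPM). Of 6 B cell markers 2 were listed, with a summed level of 7.86 to 10.98 TPM in ST2WT and 4.71 to 7.003 TPM in ST2fl/fl libraries. Of 7 markers of CD8, γδ and NK cells 5 were listed, at 41.3 to 81.8 TPM and 64.0 to 113 TPM, and *Tcrg-C2* among them was 13.5 ± 6.67 against 30.03 ± 8.30 TPM (limma adjusted p = 0.106, 0.0201 with the recipient as a block and 0.00788 without the ST2WT library of recipient 2). Dendritic cell markers summed to 4.90 to 6.31 TPM in ST2WT and 4.87 to 7.30 TPM in ST2fl/fl libraries (2 of 6 listed), and erythroid markers to 3.01 to 5.67 TPM and 2.08 to 3.33 TPM (2 of 6 listed). Of 7 markers of stroma and endothelium 1 was listed, *Pecam1*, at 13.3 ± 1.34 against 10.6 ± 1.19 TPM (limma adjusted p = 0.287), with every ST2WT library above every ST2fl/fl library. The part of these differences in the values of the 10 genes was not tested.

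The 10 genes were among the most abundant transcripts of these cells. By mean TPM over the 8 libraries, *Lgals1* ranked 8 of 12417 and 5 of the 10 genes fell in the top 100, with *S100a11* at rank 27, *S100a10* at 36, *S100a6* at 55 and *S100a4* at 93. *Anxa2* (rank 271), *Lgals3* (295), *Anxa6* (382) and *Anxa5* (894) followed, and *Anxa1* ranked 1053. The median entry was at 7.23 TPM. Together the 10 genes held 2.30% to 2.57% of all TPM in ST2WT and 2.27% to 2.52% in ST2fl/fl libraries, so that their summed share overlapped between the genotypes. *Lgals1* alone held 1.02% to 1.13% in ST2WT and 0.932% to 0.982% in ST2fl/fl libraries, and here the groups did not overlap.

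**Figure D1:**
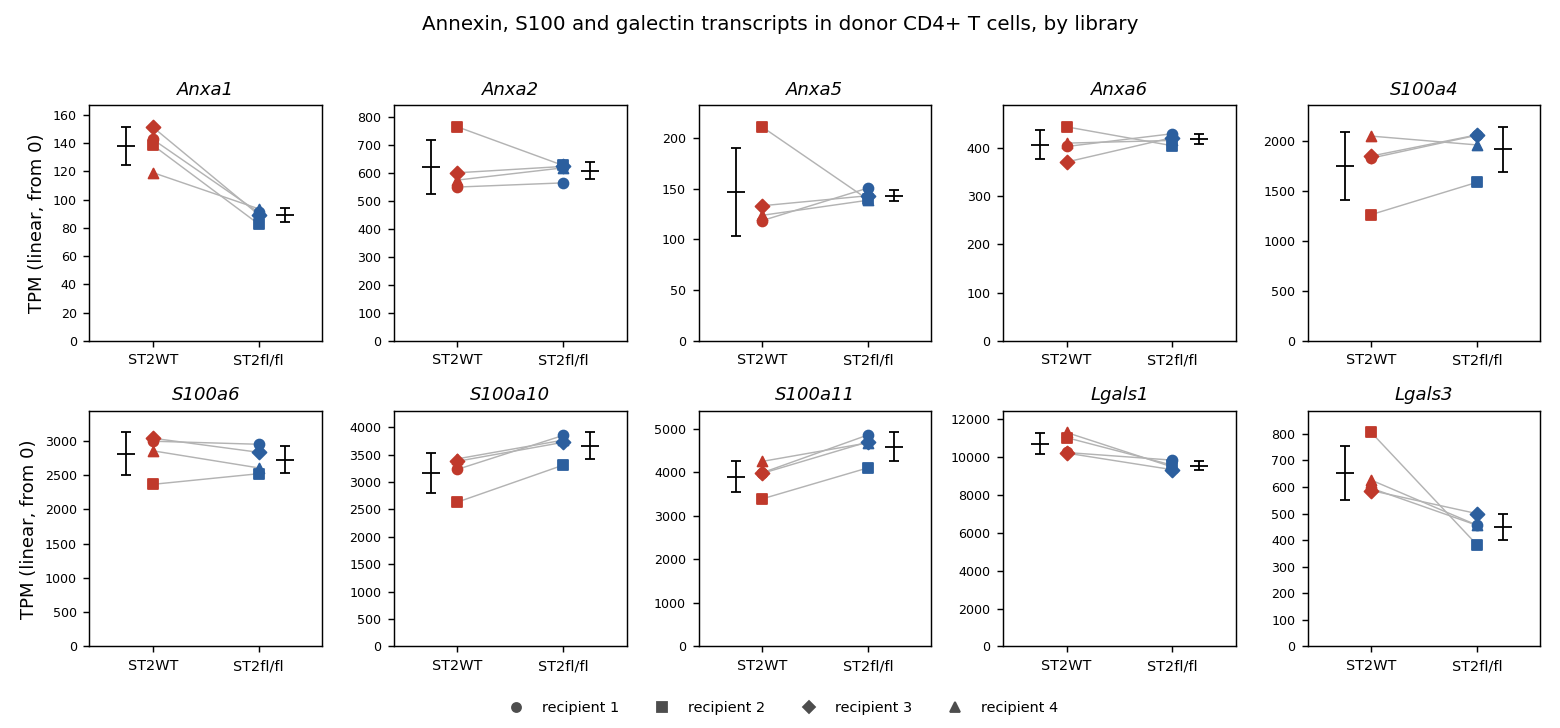
TPM of each of the 10 genes (y axis, linear from 0) in ST2WT (red) and ST2fl/fl (blue) libraries, with a marker shape per recipient, a grey line joining the libraries of a recipient, and black bars for the mean ± SD of 4 libraries. *Anxa1*, *Lgals1* and *Lgals3* show separate groups, and the square of recipient 2 is the lowest point of both genotypes in all 4 S100 panels.

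Among the annexins, *Anxa1* set the genotypes apart. It encodes annexin A1, a glucocorticoid-induced protein known for limiting inflammation. *Anxa1* was at 143, 138, 151 and 119 TPM in the ST2WT libraries of recipients 1, 2, 3 and 4, and at 90.9, 82.6, 89.3 and 93.5 TPM in the ST2fl/fl libraries of the same recipients. Every ST2WT library lay above every ST2fl/fl library, and the ratio within a recipient was 1.57, 1.68, 1.69 and 1.27. The means were 138 ± 13.6 and 89.1 ± 4.61 TPM (SD, n = 4 each), a 1.54-fold difference (log2 fold change 0.62, SE 0.09). *Anxa1* was the least abundant of the 10 genes and the one with the largest fold difference among them.

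*Anxa2* encodes annexin A2, the partner of S100A10. Its ST2WT libraries held 549.8, 765, 601 and 575 TPM and its ST2fl/fl libraries 565, 627, 624 and 619 TPM. The groups overlapped (623 ± 97.2 against 608 ± 29.3 TPM, log2 fold change 0.02, SE 0.10), and recipient 2 gave the highest library of both genotypes. Without the ST2WT library of recipient 2 the log2 fold change of *Anxa2* was -0.08. *Anxa5* encodes annexin A5, which binds phosphatidylserine. It was at 119, 211, 133 and 124 TPM in ST2WT and 151, 139, 143 and 139 TPM in ST2fl/fl libraries. The ST2WT library of recipient 2 was far above the rest, and the log2 fold change was -0.00 (SE 0.16) with it and -0.19 without it. *Anxa6*, which encodes annexin A6, the largest protein of the family, was at 402, 443, 370.0 and 409 TPM against 429, 404, 421 and 415 TPM. These groups overlapped too (406 ± 29.8 against 417 ± 10.5 TPM, log2 fold change -0.04, SE 0.07).

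*Lgals1* and *Lgals3* were higher in every ST2WT library than in any ST2fl/fl library. *Lgals1* encodes galectin-1, a secreted lectin that activated T cells make in quantity. It was at 10221, 11003, 10189 and 11275 TPM in the ST2WT libraries of recipients 1 to 4 and at 9818, 9551, 9314 and 9456 TPM in the ST2fl/fl libraries. The distance between the groups was small against the level, with means of 10672 ± 550.4 and 9535 ± 212 TPM (1.12-fold, log2 fold change 0.16, SE 0.05) and ratios within a recipient of 1.04 to 1.19. *Lgals3* encodes galectin-3, which is also among the genes that the study assigned to anergy and tolerance. It was at 595, 805, 587 and 626 TPM in ST2WT and 456, 382, 499.6 and 456 TPM in ST2fl/fl libraries. Recipient 2 gave both the highest ST2WT and the lowest ST2fl/fl value, a ratio of 2.11 against 1.17 to 1.37 in the other 3 recipients. The means were 653 ± 103 and 448 ± 48.7 TPM (1.45-fold, log2 fold change 0.54, SE 0.11). Without the ST2WT library of recipient 2 the log2 fold change of *Lgals3* was 0.43, and without both libraries of that recipient it was 0.36.

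*S100a11* and *S100a10* lay on the other side from *Anxa1*, *Lgals1* and *Lgals3*, while the genotype means of *S100a4* and *S100a6* differed by less than the SD between libraries. *S100a11*, which encodes the partner of annexin A1, was at 3989, 3389.8, 3976 and 4251 TPM in ST2WT and 4858, 4103, 4699 and 4678 TPM in ST2fl/fl libraries. The ST2WT library was the lower one in 4 of 4 recipients, with ratios of 0.821, 0.826, 0.846 and 0.909, although the groups overlapped because the ST2fl/fl library of recipient 2 was low. The means were 3901 ± 364 and 4584 ± 331 TPM (log2 fold change -0.23, SE 0.08, and -0.17 without the ST2WT library of recipient 2). *S100a10*, which encodes the partner of annexin A2, was at 3230.4, 2633, 3378 and 3422 TPM in ST2WT and 3849, 3307, 3724 and 3764 TPM in ST2fl/fl libraries. It too was lower in the ST2WT library of 4 of 4 recipients (ratios 0.796 to 0.909), with overlapping groups (3166 ± 364 against 3661 ± 242 TPM). Its log2 fold change was -0.21 (SE 0.09), and -0.13 without the ST2WT library of recipient 2.

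*S100a4* encodes a protein that binds nonmuscle myosin and is known from motile and memory T cells. Its ST2WT libraries held 1825, 1261, 1846 and 2045 TPM and its ST2fl/fl libraries 2054, 1584, 2058 and 1957 TPM. The groups overlapped (1744 ± 337 against 1913 ± 224 TPM), and the log2 fold change of -0.15 (SE 0.14) became 0.00 without the ST2WT library of recipient 2. *S100a6* encodes calcyclin, which binds several annexins and the calcyclin-binding protein. It was at 2991, 2362, 3034 and 2851 TPM in ST2WT and 2946, 2517, 2829 and 2602 TPM in ST2fl/fl libraries. Here the means were close to each other (2809 ± 308 and 2724 ± 199 TPM, log2 fold change 0.04, SE 0.08). Without the ST2WT library of recipient 2 the log2 fold change of *S100a6* was 0.12.

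**Figure D2:**
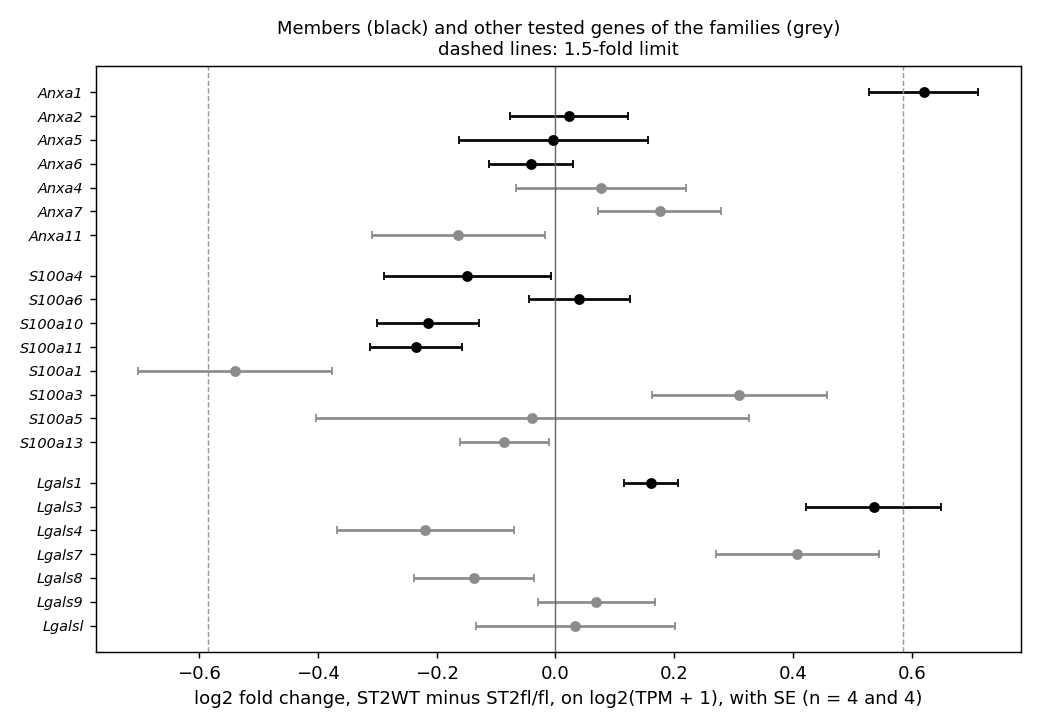
Log2 fold change, ST2WT minus ST2fl/fl on log2(TPM + 1), with its SE (x axis; n = 4 and 4), of the 10 genes (black) and of 12 other tested annexin, S100 and galectin genes (grey), with the 1.5-fold limit as dashed lines. *Anxa1* (0.62) lies beyond the limit and *Lgals3* (0.54) just inside it, whereas *S100a10* (-0.21) and *S100a11* (-0.23) lie on the other side of 0.

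Across all genes, 53 of 10238 (0.518%) passed both limits (over 1.5-fold, with a limma adjusted p under 0.05), with 25 higher (0.244%) and 28 lower (0.273%) in ST2WT cells. Of the 10 genes, 1 was past both limits (*Anxa1*). The groups did not overlap for 3 of the 10 genes, all higher in ST2WT cells, whereas of all tested genes 4.58% lay apart in this way with ST2WT higher and 5.45% with ST2WT lower. With the recipient as a block, 95 genes (0.928%) passed, 1 of the 10 among them. Because this contrast was known when the genes were picked, nothing is read from these counts. The median log2 fold change of the 10 genes was 0.01, against -0.01 over all tested genes, and 5 of the 10 were positive and 5 negative. The position of *Anxa1* against the limits depended on single libraries: it was inside them without the library of recipient 1 or 3 of either genotype, and without recipients 1, 2 or 3 altogether, with a log2 fold change of 0.57 to 0.71 over all leave-outs. In bulk RNA, fewer cells that carry a transcript and less of it in each cell cannot be told apart.

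Ratios between binding partners were taken within each library. The *S100a11* to *Anxa1* ratio was 28.0, 24.5, 26.3 and 35.7 in the ST2WT and 53.5, 49.6, 52.6 and 50.1 in the ST2fl/fl libraries of recipients 1 to 4. The groups were well separated (28.6 ± 4.94 against 51.4 ± 1.88). The *S100a10* to *Anxa2* ratio was 5.88, 3.44, 5.62 and 5.95 in ST2WT and 6.82, 5.27, 5.97 and 6.08 in ST2fl/fl libraries. It was lower in ST2WT in each recipient but overlapped between the groups. The *Lgals1* to *Lgals3* ratio was 17.2, 13.7, 17.4 and 18.0 in ST2WT and 21.5, 25.0, 18.6 and 20.7 in ST2fl/fl libraries. These groups did not overlap, so galectin-3 transcripts made up more of the galectin pair in ST2WT cells. Among the S100 genes, *S100a11* to *S100a10* was 1.18 to 1.29 in ST2WT and 1.24 to 1.26 in ST2fl/fl libraries, and *S100a6* to *S100a4* was 1.39 to 1.87 and 1.33 to 1.59, with overlapping groups in both.

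**Figure D3:**
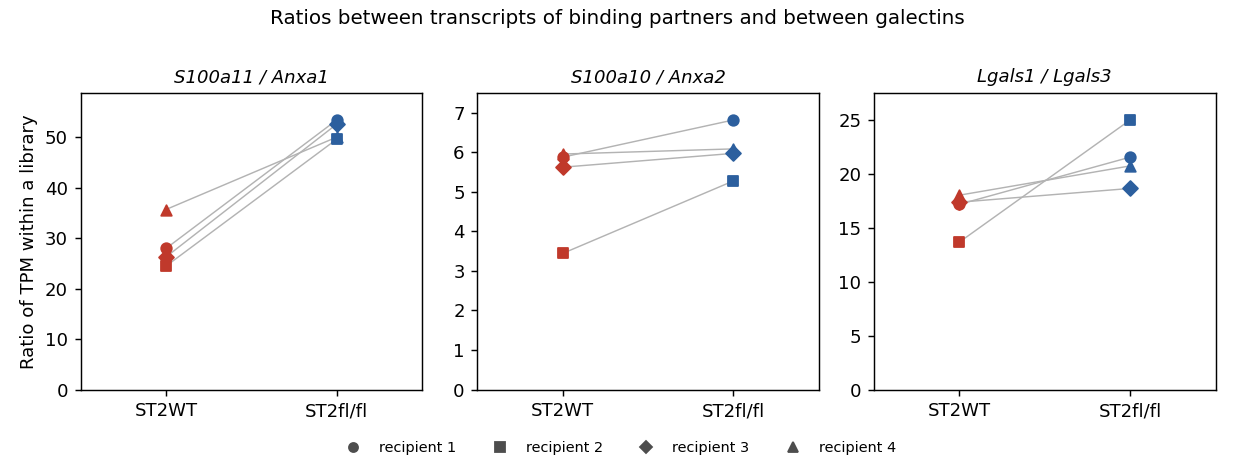
Ratio of TPM within a library (y axis, from 0) for *S100a11* over *Anxa1*, *S100a10* over *Anxa2* and *Lgals1* over *Lgals3* in ST2WT (red) and ST2fl/fl (blue) libraries, with a marker shape per recipient and grey lines joining the libraries of a recipient. The first ratio is 24.5 to 35.7 in ST2WT and 49.6 to 53.5 in ST2fl/fl cells, and the ST2WT library of recipient 2 is lowest in all 3 panels.

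Differences between recipients were a measure that the choice of genes did not use, since each recipient gave both genotypes, and in this measure the S100 genes had the lowest p of the 10 without passing the correction. After genotype was accounted for, the limma F test found 0 of 10238 genes and 0 of the 10 at a Benjamini-Hochberg adjusted p under 0.05. At an unadjusted p under 0.05, it gave 1395 genes (13.6%) and 4 of the 10, which were the 4 S100 genes. For *S100a4* the unadjusted p was 0.00199 and the adjusted p 0.281 (limma F test over 4 recipients). *S100a11*, *S100a10* and *S100a6* followed with unadjusted p of 0.00889, 0.00929 and 0.0144 from the same F test, and the adjusted p of the 10 genes spanned 0.281 to 0.981, so that none passed the correction.

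All 4 S100 genes among the 10 were lowest in recipient 2 in both genotypes, a pattern seen in 18.9% of all tested genes. Of the other S100 genes, *S100a1* and *S100a13* showed this pattern too. *S100a3* and *S100a5*, at mean levels of 1.20 and 2.51 TPM, were lowest there in ST2fl/fl but not in ST2WT cells. The limma F test gave *S100a5* an unadjusted p of 0.0123 (adjusted 0.321). For *S100a13*, *S100a1* and *S100a3* its unadjusted p was 0.0653, 0.0916 and 0.918. Relative to the other libraries of its genotype on the log2 scale, *S100a4* deviated in recipient 2 by -0.59 in ST2WT and -0.35 in ST2fl/fl cells. For *S100a11* these deviations were -0.26 and -0.21, for *S100a10* -0.34 and -0.19, and for *S100a6* -0.32 and -0.15. *Anxa2* was the 1 gene of the 10 that was highest in recipient 2 in both genotypes (16.5% of all genes). *Anxa5* and *Lgals3* were high there in the ST2WT library alone, by 0.75 and 0.42. The ST2WT library of recipient 2 is the one that stood apart from the rest, and its part in the recipient pattern was not tested beyond leaving it out. Without the ST2fl/fl library of recipient 2, which leaves that recipient to the library that stood apart, 1712 of 10242 genes and 7 of the 10 passed the adjusted F test; without the ST2WT library of recipient 2 instead, 1 gene and none of the 10 passed.

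**Figure D4:**
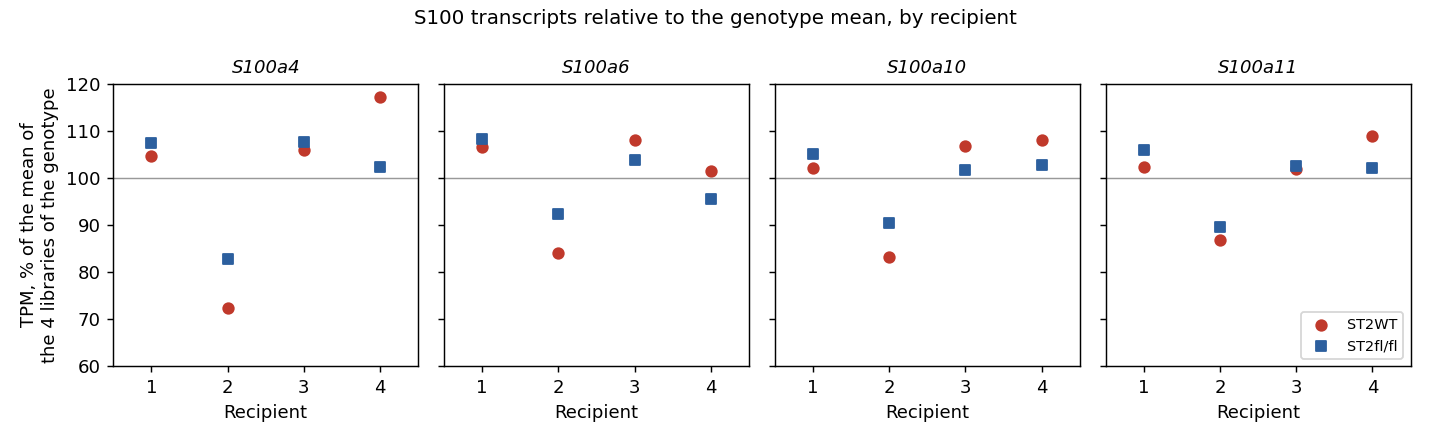
TPM of the 4 S100 genes as a percentage of the mean of the 4 libraries of the same genotype (y axis, not from 0) by recipient (x axis), with ST2WT as red circles and ST2fl/fl as blue squares. Recipient 2 is the lowest in both genotypes in every panel.

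The spread between libraries was wider in ST2WT cells, and part of this came with recipient 2. The SD of TPM was larger in ST2WT than in ST2fl/fl libraries for 10 of the 10 genes, against 69.1% of all tested genes. With recipient 2 left out it was larger for 7 of the 10, against 49.3% of all genes. For *Anxa5* it was 43.4 against 5.49 TPM, and for *Anxa2* 97.2 against 29.3 TPM.

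The 4 S100 genes among the 10 lie on chromosome 3, and the positions of the other S100 genes were not looked up. In GENCODE M21 on GRCm38, *S100a4* (chr3:90603771-90606045) and *S100a6* (chr3:90612882-90624181) lie 6836 bases apart on the plus strand of chromosome 3. *S100a11* (chr3:93520488-93526287) and *S100a10* (chr3:93555080-93564643) lie 28792 bases apart on the same strand, 2.9 Mb further on. *Anxa5* is on the same chromosome but 54.1 Mb away (chr3:36448923-36475894, minus strand), and it did not share the recipient pattern. The others are on 5 further chromosomes, with *Anxa1* at chr19:20373428-20390944 and *Lgals3* at chr14:47367751-47386160. None of the 10 is on chromosome 1, which carries *Il1rl1* and the CD45 gene *Ptprc*, or on chromosome 6, which carries the reporter locus. *S100a4* overlaps the predicted gene *Gm42674* on the same strand, which averaged below 1 TPM and was not tested. *Anxa1* and *Anxa2* each overlap a noncoding gene on the opposite strand, and whether strand was used in counting is not given in the sources used here.

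The start regions of 3 of the S100 genes are shown because these genes were all lowest in the same recipient and lie on 1 chromosome. Sequences upstream of the start site were taken from RefSeq (GRCm38.p6) for the 7 of 10 genes that matched. Bases inside annotated exons were trimmed from the 3 sequences shown, but not for the motif search. They read 5′ to 3′, with matches to the searched letters in capitals. They are the 250 bases before the start of *S100a4* (chr3:90603520-90603769), 238 bases ending 13 bases before that of *S100a6* (chr3:90612644-90612881) and 242 bases ending 9 bases before that of *S100a11* (chr3:93520246-93520487), all on the plus strand.
S100a4: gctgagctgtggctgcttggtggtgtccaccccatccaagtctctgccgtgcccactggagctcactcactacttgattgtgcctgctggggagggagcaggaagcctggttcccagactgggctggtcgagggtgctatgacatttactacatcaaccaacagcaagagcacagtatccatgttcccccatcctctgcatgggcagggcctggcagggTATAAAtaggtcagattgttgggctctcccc
S100a6: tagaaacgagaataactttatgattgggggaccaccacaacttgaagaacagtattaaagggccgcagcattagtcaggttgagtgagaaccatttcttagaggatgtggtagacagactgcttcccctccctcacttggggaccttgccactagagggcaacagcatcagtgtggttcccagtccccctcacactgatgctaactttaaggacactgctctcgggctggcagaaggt
S100a11: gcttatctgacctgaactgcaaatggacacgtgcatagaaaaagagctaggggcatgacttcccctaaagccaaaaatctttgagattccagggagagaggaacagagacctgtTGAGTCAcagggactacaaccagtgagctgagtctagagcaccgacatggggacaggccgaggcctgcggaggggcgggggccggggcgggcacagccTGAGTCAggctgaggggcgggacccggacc

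*S100a4* holds the letters TATAAA, the core of a TATA box, 31 bases before its start. *S100a11* holds TGANTCA, the letters of an AP-1 site, at 136 and 38 bases before its start, and *S100a6* holds none of the 6 motifs searched on both strands. Over the untrimmed windows of all 7 matched genes, TATAAA was found in 3 (*Anxa1*, *Anxa2* and *S100a4*) and in 12.4% of 32851 RefSeq windows of 250 bases. All 250 bases of the *Anxa1* window lie in an annotated exon of that gene. The TATAAA of *Anxa2*, 17 bases before its start, lies in the 63 bases of its window that are in an annotated exon. TGANTCA was found in 2 (*Anxa2* and *S100a11*) and in 6.75% of the windows. TTCNNNGAA (a STAT-type site, 7.02% of windows), an NF-κB-type site (1.41%), AGGTGTGA (a T-box site, 1.12%) and a full glucocorticoid response element (0.0304%) were in none of the 7. These are matches of letters and say nothing of occupancy.

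The 10 genes made up nearly all of the transcripts of their families. The 4 annexins held 94.1% to 95.4% of the TPM of the 8 annexin genes listed, the 4 S100 genes 92.1% to 93.2% of 8 S100 genes, and the galectins 96.4% to 97.0% of 7 galectin genes. Of the other members, 0 of 3 tested annexins, 0 of 4 S100 genes and 0 of 5 galectins passed both limits in limma, without or with the recipient as a block. At an unadjusted p under 0.05, limma gave 1 S100 gene lower and 1 galectin higher in ST2WT cells, *S100a1* and *Lgals7*. The share of all tested genes under this unadjusted cutoff is not given for the genotype comparison. Nothing is therefore read from such counts, here or in the lists below. *S100a1*, a neighbour in the S100 family known from muscle, was 34.6 ± 2.45 against 51.8 ± 12.2 TPM (limma adjusted p = 0.196, log2 fold change -0.54). *Lgals7* was 85.2 ± 14.3 against 63.8 ± 9.05 TPM (limma adjusted p = 0.240, log2 fold change 0.41). Of the 5 other galectins tested, *Lgals7* among them, 3 had a positive and 2 a negative log2 fold change, and the groups overlapped for each. The most abundant of the others, *S100a13*, was 881 ± 73.4 against 933 ± 53.2 TPM.

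Among partners and ligands of these proteins, no gene passed. Of 8 tested partners and receptors of annexins and S100 proteins, 0 passed both limits in limma and 0 had an unadjusted p under 0.05 (median log2 fold change 0.01). *Cacybp*, the calcyclin-binding protein, was 195 ± 53.1 against 154 ± 29.3 TPM (adjusted p = 0.423 from limma), and *Myh9*, the nonmuscle myosin chain that S100A4 binds, 31.5 ± 6.97 against 37.2 ± 3.11 TPM (adjusted p = 0.477). Without the ST2WT library of recipient 2 the log2 fold change of *Cacybp* went from 0.33 to 0.15 and that of *Myh9* from -0.26 to -0.09. Of 15 galectin ligands and glycan-building enzymes, 0 passed both limits and 2 were lower in ST2WT cells at an unadjusted p under 0.05 (median log2 fold change -0.12). *Lag3*, a checkpoint receptor that binds galectin-3, was at 6.05, 6.16, 5.29 and 6.36 TPM in ST2WT and 9.72, 8.74, 8.27 and 9.78 TPM in ST2fl/fl libraries. Its groups did not overlap, but it missed the threshold (limma adjusted p = 0.0662, and 0.0543 with the recipient as a block; log2 fold change -0.54, SE 0.11). Without the ST2WT library of recipient 2 the adjusted p of *Lag3* was 0.0313, at a log2 fold change of -0.55 that is under the 1.5-fold limit. *Mgat5*, the enzyme that builds branched N-glycans to which galectins bind, was 2.27 ± 0.63 against 3.26 ± 0.32 TPM (adjusted p = 0.310), with a log2 fold change of -0.40, or -0.25 without that library.

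Genes of the states with which these families are associated were set beside them. Of 22 other genes of effector cells and the cortical cytoskeleton, 0 passed both limits in limma and 2 were higher at an unadjusted p under 0.05, *Tagln2* (994 ± 213 against 774 ± 43.9 TPM, adjusted p = 0.265) and *Crip1* (3768 ± 439 against 3235 ± 185 TPM, adjusted p = 0.304). Without the ST2WT library of recipient 2, which had 1309.7 TPM of *Tagln2*, the ST2WT mean of this gene was 889 ± 43.1 TPM (n = 3) and its log2 fold change 0.20 in place of 0.34. *Crip1* had a limma adjusted p of 0.0198 without that library, at a log2 fold change of 0.30 that is under the 1.5-fold limit. Of naive T cell genes, *Il7r*, the IL-7 receptor, was at 103, 61.5, 122 and 138 TPM in ST2WT and 205, 127, 184 and 226 TPM in ST2fl/fl libraries. It was lower in the ST2WT library of each recipient and passed both limits with the recipient as a block (limma adjusted p = 0.0125) but not without it (0.185). *Ccr7*, the chemokine receptor of the T cell zone, was 19.6 ± 6.96 against 29.9 ± 4.99 TPM and likewise passed with the block (limma adjusted p = 0.0473, and 0.235 without it), and also passed without the ST2WT library of recipient 2 (adjusted p = 0.0193, log2 fold change -0.83). Of 9 effector transcription regulators, 0 passed both limits in limma, and at an unadjusted p under 0.05 there was 1 gene in each direction (median log2 fold change -0.10, 6 of 9 negative). *Batf*, an AP-1 family factor, was the higher one, with 618 ± 57.3 against 490.4 ± 32.1 TPM (limma adjusted p = 0.121, log2 fold change 0.33, SE 0.08). *Irf4*, a factor that BATF pairs with, was the lower one, with 7.90 ± 0.89 against 10.3 ± 1.13 TPM (limma adjusted p = 0.263, log2 fold change -0.35, SE 0.12), and was lower in the ST2WT library of 4 of 4 recipients.

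Since annexin A1 is known as a glucocorticoid-induced protein, 8 glucocorticoid-responsive genes were compared. By limma 0 passed both limits and 1 was lower in ST2WT cells at an unadjusted p under 0.05 (median log2 fold change -0.19). This was *Tsc22d3*, which encodes the glucocorticoid-induced leucine zipper, at 42.5 ± 4.95 against 53.1 ± 6.38 TPM (limma adjusted p = 0.289, log2 fold change -0.31, SE 0.12). Of the 8 genes, 6 had a negative and 2 a positive log2 fold change. *Cxcr4* was among the positive ones, at 20.7 ± 1.22 against 17.2 ± 3.56 TPM (limma adjusted p = 0.409, log2 fold change 0.27). Whether glucocorticoids had a part in the level of *Anxa1* was not tested.

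**Figure D5:**
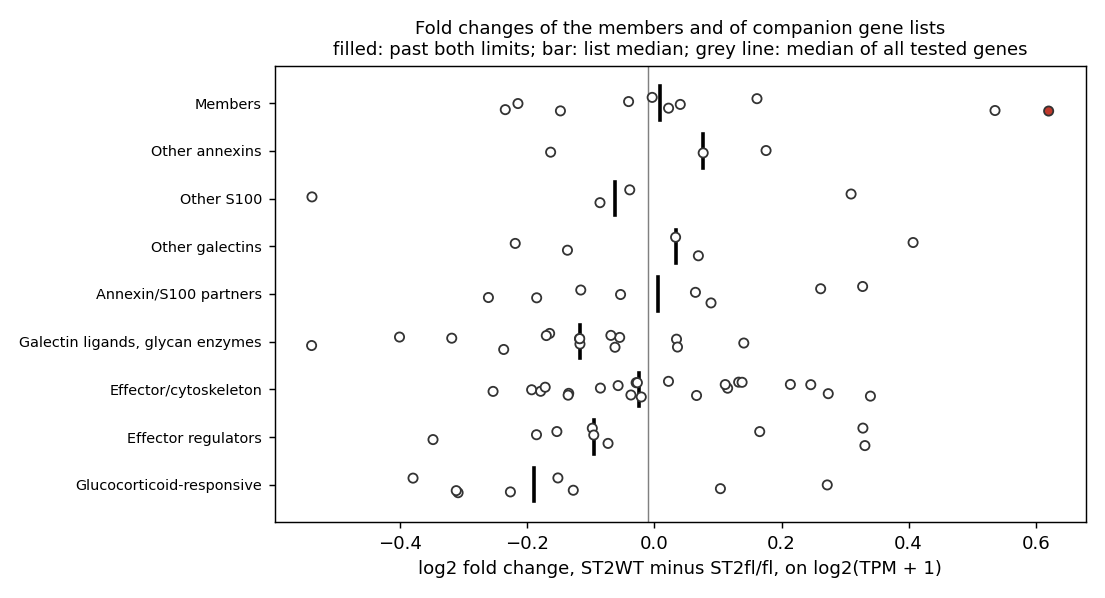
Log2 fold change, ST2WT minus ST2fl/fl on log2(TPM + 1) (x axis), of the tested genes of 9 gene lists (y axis), with a bar at each list's median, the median of all tested genes as a grey line, and filled circles for genes past both limits. The 1 filled circle is *Anxa1* (0.62).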

How the data were processed

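Donor CD4+ T cells were sorted into SmartSeq low-input lysis buffer, libraries were made with Nextera XT, and reads were aligned to GRCm38.p6 and assigned to genes by the authors in CLC Genomics Workbench 20.0.3. The deposited values are TPM, made by the authors for each library separately, for entries above 0 in all 8 libraries. The study's own comparison used a count model on reads, for which TPM hold no basis. The depth per library is unknown, and no counting interval is given. All 8 columns of the table were used (columns not used: 0).

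The 10238 genes that averaged 1 TPM or more (2179 were left out) entered limma 3.58.1 (R 4.3.3), run on log2 values after a pseudocount of 1 was added, with a trend on expression, no covariate and Benjamini-Hochberg adjustment over all tested genes. A gene passed when its fold change exceeded 1.5 and its adjusted p was under 0.05, which the study used as limits too. Log2 fold changes are ST2WT minus ST2fl/fl and understate changes of low genes. The recipient test was limma's F test with genotype and recipient as terms. The script was tested on simulated data. The members, the companion lists and the markers were chosen with earlier results of these data known. Named genes were all members, the genes past the limits and up to 3 with the smallest p in each companion list, *Il1rl1*, and up to 2 markers of each list with the highest mean TPM. *Gt(ROSA)26Sor*, *Gm42674*, *Cd4*, *S100a5* and the markers not listed fall outside this rule and were named after the values were seen. Results of some single genes are left out here.

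Replicate numbers, which both genotypes share, were taken to mark the recipient, since the study sorted both populations from the same spleen while recipients are not named in the labels. Deviations from the group means correlated across genes at 0.118 to 0.352 between same-numbered libraries and at -0.283 to 0.109 between the others. Nothing else says that the libraries are independent beyond their recipients. Alternatives were other pseudocounts, filters and scalings, no trend, array weights, the recipient as a block, and leaving out each library or recipient. Positions are from GENCODE M21 and upstream sequences from RefSeq, which matched 7 of 10 genes. Python 3.11.15, pandas 2.3.3 and matplotlib 3.10.9 were used for tables and figures.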

Additional observations from a re-analysis of the deposited data

Results flagged for a closer look

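In 6 of the 88 groups of 4 libraries checked, 1 library lay further from the rest than Dixon's critical value at 95% allows, and chance alone marks about 1 in 20 such groups. In 4 of the 6 the distant library was the ST2WT library of recipient 2. *Anxa5* was at 211 TPM there, against 119 to 133 TPM in the other ST2WT libraries, and the *S100a10* to *Anxa2* ratio was 3.44 there, against 5.62 to 5.95. *Anxa11*, another annexin, was at 4.08 TPM in that library against 5.95 to 6.32 TPM, and *Myh9*, the myosin chain that S100A4 binds, at 21.1 TPM against 33.3 to 35.7 TPM. The other 2 were in ST2fl/fl cells. *Anxa2* was at 565 TPM in recipient 1, against 619 to 627 TPM, and *Tagln2*, an actin-binding protein of the transgelin family, at 839 TPM in recipient 2, against 746 to 757 TPM.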

How the results depend on the processing

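Under the 23 alternatives the log2 fold changes of *Anxa1* (0.57 to 0.71), *Lgals1* (0.13 to 0.20), *Lgals3* (0.36 to 0.64), *S100a6* (0.00 to 0.12), *S100a10* (-0.26 to -0.13) and *S100a11* (-0.29 to -0.17) kept their sign. Those of *Anxa2* (-0.08 to 0.08), *Anxa5* (-0.20 to 0.11), *Anxa6* (-0.10 to 0.01) and *S100a4* (-0.24 to 0.00) took both signs, *Anxa5* with both other scalings (0.02 and 0.01) as well, each within the spread between replicates. The median of the 10 genes ran from -0.08 to 0.04. The count of all genes past both limits, 53 as reported, was 32 with a pseudocount of 5, 130 with array weights, 95 with the recipient as a block, and 116 with the block and without the ST2WT library of recipient 2, an alternative chosen after seeing the data; leaving out libraries or recipients gave 9 to 107 (104 without the ST2WT library of recipient 2, and 20 each without recipient 3 or 4 in both genotypes). The count over the companion lists, 1 as reported, was 3 with array weights, 3 with the block, 4 with the block and without that library, and 0 to 4 over the leave-outs. Genes that differed between recipients, 0 as reported, numbered 2 with array weights and 0 to 1712 over the leave-outs, with 0 to 7 of the 10 genes. The cause of these changes was not tested. With 4 libraries a genotype and unknown depth, small differences such as that of *Lgals1* cannot be set against counting error.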
